A study of Mus musculus with 38 samples.

Results

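BV2 cells, a mouse microglial line immortalised with a retrovirus, were kept in hypoxia with panobinostat or with dimethyl sulfoxide (DMSO), the control, and the RNA of the 2 treatments was compared. The comparison has 4 libraries of the 38 in the series, 2 with 10 nM panobinostat and 2 with DMSO, all at less than 0.1% oxygen for 16 h. They were chosen by their labels alone. A further 2 BV2 libraries, from 21% oxygen with DMSO, give a reference level, since no panobinostat was given in normoxia. They are not contrasted, but they enter the same fit and so share in its scaling, its low-count filter and its estimate of the spread. All groups grew in medium with 2% fetal bovine serum and were fixed on ice in 3% glyoxal before RNA was extracted and its polyadenylated part sequenced. BV2 is 1 cell line, and the labels call the libraries of a group biological replicates without saying what separates them, so each p-value below measures only the spread between these libraries. Bone marrow-derived macrophages (BMDM), primary cells given the same treatments in medium with 10% serum, are used at the end for a test of the difference between the cell types.

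Panobinostat is a hydroxamate that blocks the zinc-dependent histone deacetylases (HDACs), the enzymes that take acetyl groups off the lysines of histones and many other proteins. When they are blocked, acetyl marks build up on chromatin, and transcription of some genes goes up while that of others goes down. In many dividing cells such drugs are known to halt the cell cycle, to raise the cell cycle inhibitor Cdkn1a and the linker histone H1f0, and to change cytokine and antigen presentation genes in macrophages and microglia. Low oxygen, by contrast, acts largely through the HIF transcription factors, which turn on glucose transport, glycolysis and Vegfa.

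The 6 BV2 libraries held 12639558 to 14356485 counts each, so that 3 counts, the limit below which a gene is taken as not detected, correspond to 0.209 to 0.237 CPM, counts scaled to the library total. These floors cover counting error only. The common coefficient of biological variation was 20.5%, and the 2 libraries of each group differed by more than sampling noise. Of 14 microglia and macrophage markers, Laptm5 and Cd68 stood at 589 CPM or more in each library, and Csf1r, Spi1, Tyrobp and Fcer1g at 107.7 CPM or more. Tmem119, P2ry12 and Cx3cr1, markers of microglia in the brain, reached at most 16.3 CPM and Aif1 at most 1.74 CPM. Itgam was also low, at 5.46 to 18.5 CPM. The hypoxic DMSO libraries differed from each other in the cell cycle, as given with those genes.

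Panobinostat changed 1941 of 13294 tested genes at an adjusted p under 0.05 in edgeR's quasi-likelihood test, which is 14.6% of them. Of these, 958 (7.21% of the tested genes) were higher and 983 (7.39%) lower with the drug. The fitted rises were larger, and the genes that rose stood lower in normoxia. Of the higher genes 750 rose at least 2-fold, 339 at least 4-fold and 158 at least 8-fold, against 656, 105 and 21 of the lower genes. Some rises start from 0 counts with hypoxic DMSO, where the fit sets their size. H2-Ob, for example, was fitted at 8.29 on the log2 scale, while the floor of 3 counts gives a lower bound of 3.76. The median log2 fold change was 1.51 among the higher and -1.16 among the lower genes. In normoxic cells the later higher genes stood at a median of 5.49 CPM and the lower genes at 50.2 CPM. In each of the 1941 genes the 2 drug libraries lay outside the range of the 2 hypoxic DMSO libraries. The same held for genes that were not called, such as Cdkn1a, Vegfa and Hdac3, so this separation adds no support to the calls. Over all tested genes the median log2 fold change was -0.01.

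How many genes were called depended on the libraries and on the fit. A block for the replicate number gave 4025 genes (30.3%), among them all 1941. Scaling by library totals in place of trimmed means moved the median of all genes from -0.01 to 0.09 and gave 1007 higher and 554 lower genes, 64.5% higher against 49.4% with trimmed means. Without panobinostat replicate 1 only 292 genes passed, without panobinostat replicate 2 473, and without DMSO replicate 2 1209. In these fits the lone library is assumed to vary like the other groups. Of 114 called genes that are named by a fixed rule, 41 kept the call whichever library was left out, and 23 kept it in every alternative that tested them. Among these 23 are the histone genes Hist1h1e, Hist1h3i, Hist1h2ak and Hist1h3e, further Gli1, Cd36, Kifc2, C3, Tmem119 and H2-DMa among the higher genes, and Igsf6, Tnfsf13b, Plpp5, Msra, Psmb10, Chd3 and Brpf3 among the lower.

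**Figure D1:**
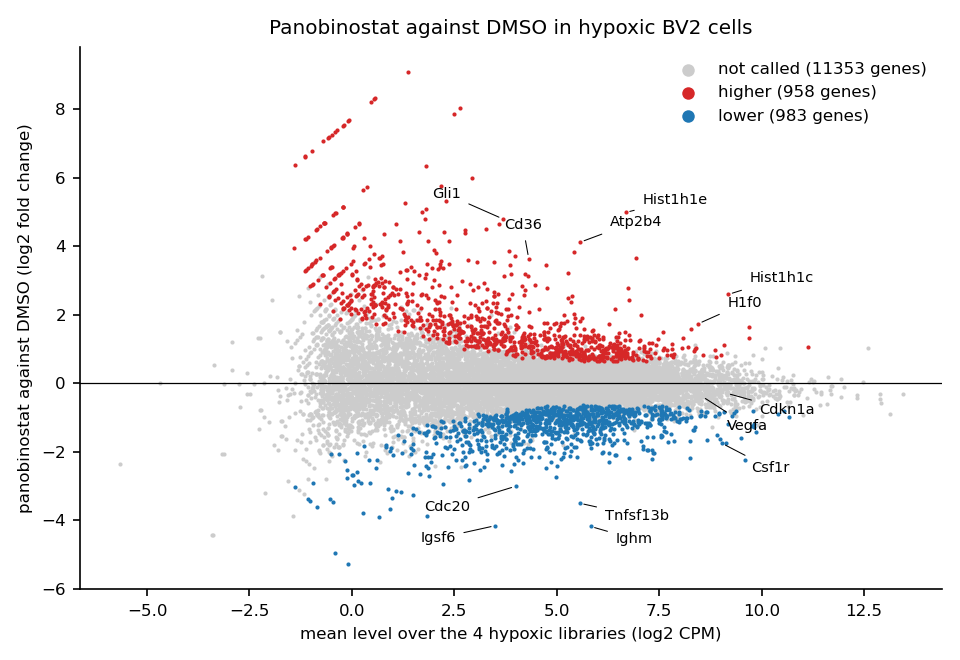
Each point is 1 of the 13294 tested genes; the horizontal axis is its mean level over the 4 hypoxic BV2 libraries (log2 CPM) and the vertical axis the log2 fold change of panobinostat against DMSO. Genes called higher (red, 958) reach beyond 4 on the log2 scale at low levels and, as for Hist1h1e and Atp2b4, at higher ones. At low levels, streaks of points are genes with few or no counts with DMSO. Genes called lower (blue, 983) reach -3 or less in 21 cases.

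The histone genes moved the most as a group. Replication-dependent histone genes encode the linker histone H1 and the core histones H2A, H2B, H3 and H4, lie in clusters, have no introns in most cases, and are normally read in S phase. Their messages normally end in a stem-loop and carry no poly(A) tail, while the libraries were made from polyadenylated RNA, so the values count only those histone transcripts that such a selection keeps. Of 69 listed genes 52 could be tested, and 40 of these rose and 0 fell, against 7.21% of all tested genes that rose. Their median log2 fold change was 2.44, and all 52 lay above 0. The low-count filter lets in genes for being high with the drug alone. Hist1h3a, for example, had 0 counts in both hypoxic DMSO libraries and 79 and 54 with panobinostat. These counts are thus partly set by the filter and do not by themselves support a rise of the list. A mean CPM of at least 5 as the filter, which tests fewer genes, left 23 rises. Summed over all 69 genes, tested or not, histone transcripts made up 620.0 and 413.9 CPM with DMSO and 2879 and 2428 CPM with panobinostat. In normoxia the sum was 279 and 250.04 CPM. Without panobinostat replicate 1 the count of rises was 22.

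The promoters of the H1 genes that rose the most in reads are shown first, since their shared letters are the ones known from this family. Each is the 250 bases before the transcription start, from RefSeq on GRCm38.p6, with 3 sets of letters in capitals on either strand: AAACACA, the H1 box, CCAAT, the box bound by NF-Y, and TATAAA, the TATA box.
Hist1h1e, chr13:23622559-23622808, minus strand: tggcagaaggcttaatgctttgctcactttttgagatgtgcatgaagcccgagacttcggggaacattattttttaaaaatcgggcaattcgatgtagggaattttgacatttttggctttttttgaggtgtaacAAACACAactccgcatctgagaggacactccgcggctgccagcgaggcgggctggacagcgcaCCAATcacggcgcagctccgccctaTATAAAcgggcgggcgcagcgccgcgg
Hist1h1d, chr13:23554782-23555031, plus strand: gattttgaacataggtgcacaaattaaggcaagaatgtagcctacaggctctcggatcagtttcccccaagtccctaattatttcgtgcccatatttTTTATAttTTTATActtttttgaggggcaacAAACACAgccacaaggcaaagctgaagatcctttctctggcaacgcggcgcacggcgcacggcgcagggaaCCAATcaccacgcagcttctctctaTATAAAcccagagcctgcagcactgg
Hist1h1c, chr13:23738557-23738806, plus strand: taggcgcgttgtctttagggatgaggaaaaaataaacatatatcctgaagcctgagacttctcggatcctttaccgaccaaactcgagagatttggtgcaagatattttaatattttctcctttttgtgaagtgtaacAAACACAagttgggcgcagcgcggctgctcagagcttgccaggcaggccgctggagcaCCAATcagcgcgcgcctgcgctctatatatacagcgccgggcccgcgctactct
In all 3 promoters the H1 box stands upstream of the CCAAT box. TATAAA follows the CCAAT box in Hist1h1e and Hist1h1d, and Hist1h1d also holds it on the other strand further upstream. Hist1h1c has no TATAAA in this window.

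Hist1h1e (chr13:23620629-23622558, minus strand), which encodes linker histone H1.4, stood at 0.67 and 1.18 CPM in normoxia with DMSO, 7.78 and 4.78 CPM in hypoxia with DMSO and 230.1 and 168 CPM in hypoxia with panobinostat. Both drug libraries lay far above the 4 others, and the log2 fold change was 4.99 ± 0.32 (SE, adjusted p = 0.000178), the largest of those that the naming rule ranked by size. About 28.4% of the 75-base words of its transcript also occur in other genes, and 42.3% of its exonic bases overlap Hist1h2be and Gm11398 on the same strand, so part of its reads could belong to them. Hist1h1d (chr13:23553262-23560686, plus strand), which encodes H1.3, shares 1.47% of its words with other genes. That share is taken over an annotated exon of 7425 bases that begins before the RefSeq start, so it may be higher in the message itself. Hist1h1d read 3.13 and 1.6 CPM in normoxia with DMSO and 25.8 and 10.2 CPM in hypoxia with DMSO. In hypoxia with panobinostat it read 258 and 196 CPM, a change of 3.66 ± 0.42 (SE, adjusted p = 0.00196). Hist1h1c (chr13:23738808-23740367, plus strand), H1.2, was the most abundant and went from 206 and 125 to 1106 and 893 CPM, a change of 2.59 ± 0.29 (SE, adjusted p = 0.00194). In normoxia it already stood at 121 and 111 CPM, while Hist1h1e was near 1 CPM. Hist1h1b, H1.5, read 0.55 and 0.224 CPM with DMSO and 5.4 and 8.43 CPM with panobinostat, a change of 4.14 ± 0.54 (SE, adjusted p = 0.00279).

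All 5 histone classes were higher. The 6 H1 genes summed to 213 and 141 CPM with DMSO and 1572 and 1331 CPM with panobinostat, and all 4 tested members rose. H3 genes, 9 of 11 tested called, went from 17.6 and 15.3 to 161 and 165 CPM. H4 genes, 11 of 13, went from 124 and 64.1 to 489 and 402 CPM. H2A genes, 8 of 11, went from 22.9 and 12.6 to 110.4 and 83.7 CPM, and H2B genes, 8 of 13, from 242 and 181 to 547 and 447 CPM. The median log2 fold change was 3.90 for H1, 2.57 for H4, 2.33 for H3, 2.29 for H2A and 1.98 for H2B. These differences between classes were not tested. DMSO replicate 1 lay above DMSO replicate 2 in each class, and the drug libraries lay above both.

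**Figure D2:**
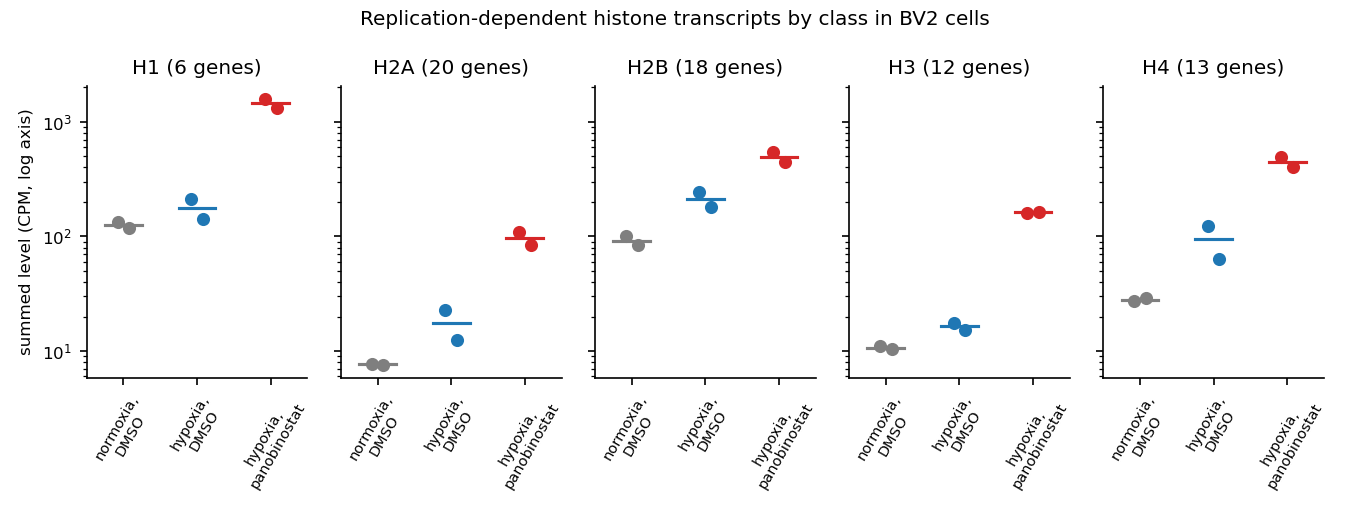
Summed CPM (log axis) of the listed histone genes of each class in the 6 BV2 libraries; points are libraries, and bars the mean of the 2 in a group. In each class both panobinostat libraries lie above both hypoxic DMSO libraries, from 213 and 141 to 1572 and 1331 CPM for H1.

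Among single core histone genes, Hist1h3i (chr13:21782960-21783370, minus strand), an H3 gene, read 0.707 and 1.12 CPM with DMSO and 21.6 and 24.4 CPM with panobinostat, a log2 fold change of 4.63 ± 0.38. Hist1h2ak (chr13:21753435-21753827, minus strand), an H2A gene, read 0.865 and 0.747 CPM with DMSO and 21 and 16.1 CPM with panobinostat, 4.51 ± 0.37 on the log2 scale. Hist1h3e (chr13:23561534-23562369, minus strand), also an H3 gene, read 5.27 and 6.05 CPM with DMSO and 79.5 and 81.8 CPM with panobinostat, 3.83 ± 0.23 on the log2 scale. For each of these the libraries of the 2 treatments were far apart. Hist1h3a had 0 counts in both DMSO libraries and 79 and 54 with the drug, which makes it at least 23.8-fold higher against a floor of 3 counts per library. Core histone genes are near-identical copies: 45 of the 52 tested share more than 10% of their 75-base words with other genes, and the median share is 42.2%. How the authors' counting split such reads is not given in the sources used here, so the split between core genes is uncertain. Of the 40 called genes, 7 share at most 10%, and these are Hist1h1b, Hist1h1c, Hist1h1d, Hist1h4d, Hist2h2be, Hist2h4 and Hist4h4. The shares are taken over the whole annotated exons, 7425 bases in Hist1h1d, so they may be higher in the messages themselves. Hist2h2be, the least changed of the 7, rose by 1.76 ± 0.24 on the log2 scale, and Hist1h1b, the most changed, by 4.14 ± 0.54.

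Histone genes rose on 3 chromosomes. In the Hist1 cluster (chr13:21715763-23762386) 37 of 46 tested histone genes rose, in the Hist2 cluster (chr3:96221119-96269141) 2 of 5, and Hist4h4 on chromosome 6 is the only tested gene of its locus. Between the histone genes of the Hist1 cluster lie 7 other tested genes, of which 2 rose and 0 fell, against 7.21% and 7.39% of all tested genes. Prss16, a thymus serine protease, was 2.67 and 3.81 CPM with DMSO and 12.1 and 15.9 CPM with panobinostat, a log2 fold change of 2.10 ± 0.34. Btn1a1, a butyrophilin, had 0 counts in both DMSO libraries and 30 and 49 with the drug, at least 14-fold higher. It passed the low-count filter only through the panobinostat libraries, so the count of 2 does not support a rise of these neighbours. Abt1 and Hfe in the same cluster were at -0.09 ± 0.25 and 0.03 ± 0.28. Of 5 other tested genes in the Hist2 cluster 2 rose and 0 fell, and Gm20634, which rose, overlaps exons of Hist2h3c1 on the same strand.

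Among 47 of the 52 tested histone genes with a RefSeq promoter window of 300 bases (250 before and 50 after the start), 80.9% hold CCAAT, 57.4% TATAAA and 12.8% AAACACA on either strand, against 43.4%, 8.94% and 5.58% of 9774 tested genes with a window. GGGCGG, the GC box, was held by 42.6% of the histone windows and 68.0% of all. Neither TGACTCA (AP-1) nor CACGTG (E-box, which contains ACGTG) occurred in a histone window, against 4.66% and 11.9% of all. A match here only describes letters. Over all genes called higher, with the histone genes left out, the shares were close to those of all tested genes: 70.4% hold GGGCGG, 46.7% CCAAT, 8.53% TATAAA and 5.12% TGACTCA. Of those higher genes 63.6% had a window with an observed over expected CpG ratio of at least 0.6, against 73.2% of all tested and 70.9% of the lower genes. This share was not tested.

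Histones outside the S-phase set moved in both directions. H1f0 (chr15:79028450-79030504, plus strand), the linker histone of resting and differentiated cells, read 150.5 and 289 CPM in normoxia with DMSO, 171 and 152 CPM in hypoxia with DMSO and 563 and 512 CPM in hypoxia with panobinostat, and rose by 1.74 ± 0.30 (SE, adjusted p = 0.00747). H2afj, a replacement H2A, rose by 0.87 ± 0.20. H2afx, whose protein is phosphorylated at DNA breaks, changed by -1.53 ± 0.23, from 53 and 67.3 to 21.3 and 20.2 CPM, and Cenpa, the histone H3 of centromeres, by -1.49 ± 0.36. Of 9 tested linker and replacement histone genes 2 rose and 2 fell, against 7.21% and 7.39% of all tested genes.

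Among the genes of the drug's own targets, 1 rose. Hdac1 (chr4:129516104-129542713, minus strand), a class I deacetylase, read 55.4 and 71.4 CPM with DMSO and 139 and 132 CPM with panobinostat and rose by 1.09 ± 0.24 (SE, adjusted p = 0.017), although 29.3% of its words are shared with pseudogenes such as Gm10093. Hdac2 was at 0.52 ± 0.25 (SE, adjusted p = 0.185) and Hdac3 at 0.18 ± 0.20 (SE, adjusted p = 0.583), neither past the threshold. With the replicate block the adjusted p of Hdac2 was 0.0424. Hdac7, a class IIa deacetylase, changed by -1.43 ± 0.35 and Hdac10, a class IIb polyamine deacetylase, by -0.99 ± 0.27. So 1 of 10 tested HDAC genes rose and 2 fell, and with either panobinostat library left out 0 were called. Of 27 genes of the corepressor complexes that carry HDACs, 0 rose and 3 fell. These were Chd3, a remodeller of the NuRD complex, from 694 and 535 to 209 and 179 CPM (-1.67 ± 0.23 (SE, adjusted p = 0.00325)), Mbd3 of the same complex at -1.09 ± 0.25, and Rest, the repressor of neuronal genes, at -0.72 ± 0.21. Of 25 acetyltransferases and bromodomain readers 0 rose and 6 fell, against 7.21% and 7.39% of all tested genes, with a median log2 fold change of -0.46 and 2 genes above 0. Brpf3, a scaffold of the HBO1 acetyltransferase, went from 77.4 and 61.9 to 18.4 and 20 CPM (-1.85 ± 0.22 (SE, adjusted p = 0.00196)). Brd8, a reader in the TIP60 complex, was at -1.21 ± 0.20, Brd1 at -0.95 ± 0.20 and the acetyltransferase Kat2b (PCAF) at -0.91 ± 0.22. The count of 6 was 1 without panobinostat replicate 1, 2 without panobinostat replicate 2 and 3 without DMSO replicate 1.

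Among called genes whose mean level reached 3 on the log2 CPM scale, the largest rises outside the histones were in genes of unrelated roles. Gli1 (chr10:127329882-127341974, minus strand), the transcription factor and readout of Hedgehog signalling, read 0.149 and 1.46 CPM in normoxia with DMSO, 0.865 and 0.897 CPM in hypoxia with DMSO and 23.7 and 25.9 CPM in hypoxia with panobinostat. It rose by 4.80 ± 0.58 (SE, adjusted p = 0.00217). Atp2b4 (chr1:133699457-133801041, minus strand), a calcium pump of the plasma membrane, read 8.79 and 15.9 CPM in normoxia with DMSO, 5.11 and 5.23 CPM in hypoxia with DMSO and 89.1 and 90.8 CPM in hypoxia with panobinostat, and the change was 4.12 ± 0.31 (SE, adjusted p = 0.000339). The drug libraries of both genes stood close together and far above all 4 others. Cd36 (chr5:17781690-17888801, minus strand), a scavenger receptor for oxidised lipoproteins and fatty acids, read 4.1 and 2.85 CPM in normoxia with DMSO, 2.99 and 2.91 CPM in hypoxia with DMSO and 39.6 and 34.1 CPM in hypoxia with panobinostat, a rise of 3.64 ± 0.29 (SE, adjusted p = 0.000448). Kifc2, a kinesin motor of neurons, read 2.04 and 2.39 CPM with DMSO and 26.6 and 32 CPM with panobinostat and rose by 3.72 ± 0.43. Rnase4, a secreted ribonuclease that shares a promoter region with Ang, read 0.55 and 3.06 CPM with DMSO and 24.8 and 28.7 CPM with panobinostat and rose by 3.87 ± 0.54.

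Of the genes nearly silent with DMSO, 11 had at most 3 counts in each DMSO library and at least 30 in each drug library, and 0 genes did the reverse. This rule was chosen after seeing the values. Chit1, the chitinase secreted by activated macrophages, had 0 and 1 counts with DMSO and 143 and 186 with panobinostat. Erbb3, a neuregulin receptor, had 2 and 2 against 88 and 146, and Ankrd35 1 and 0 against 140 and 153. Lzts1, a leucine zipper protein, had 3 and 3 against 137 and 113, but 25 and 10 in normoxia. The protocadherin Pcdh1, the sodium channel Scn3a, Gm3336, Btn1a1, Hist1h3a, H2-Aa and H2-Ob complete the 11.

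Among called genes whose mean level reached 3 on the log2 CPM scale, the 3 largest falls were in immune genes. Ighm (chr12:113418558-113422730, minus strand), the constant region of the IgM heavy chain, read 101 and 178 CPM in normoxia with DMSO, 119 and 96.1 CPM in hypoxia with DMSO and 5.4 and 6.42 CPM in hypoxia with panobinostat, a change of -4.18 ± 0.32 (SE, adjusted p = 0.000339). Igsf6 (chr7:121064067-121074572, minus strand), an immunoglobulin superfamily receptor of myeloid cells, read 10.8 and 8.214 CPM in normoxia with DMSO, 23.66 and 19.05 CPM in hypoxia with DMSO and 1.449 and 0.9371 CPM in hypoxia with panobinostat, at -4.16 ± 0.35 (SE, adjusted p = 0.000532). Tnfsf13b (chr8:10006467-10039072, plus strand), which encodes the B cell survival factor BAFF, read 23.2 and 17.8 CPM in normoxia with DMSO, 101 and 72.9 CPM in hypoxia with DMSO and 8.29 and 6.99 CPM in hypoxia with panobinostat, at -3.50 ± 0.27 (SE, adjusted p = 0.000339). Its drug libraries thus lay below the normoxic ones as well. Further large falls were in Plpp5, a lipid phosphatase (60.5 and 50.1 CPM with DMSO and 7.49 and 9.08 CPM with panobinostat, -2.74 ± 0.35), Msra, a repair enzyme for oxidised methionine (13.6 and 16.4 CPM with DMSO and 2.5 and 2.67 CPM with panobinostat, -2.54 ± 0.32), and Tmem80, a membrane protein (15.2 and 16.4 CPM with DMSO and 1.93 and 3.82 CPM with panobinostat, -2.44 ± 0.35). Trim46, known from the axon's initial segment, was at -2.57 ± 0.55, and Pkn3, a protein kinase, at -2.41 ± 0.45.

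**Figure D3:**
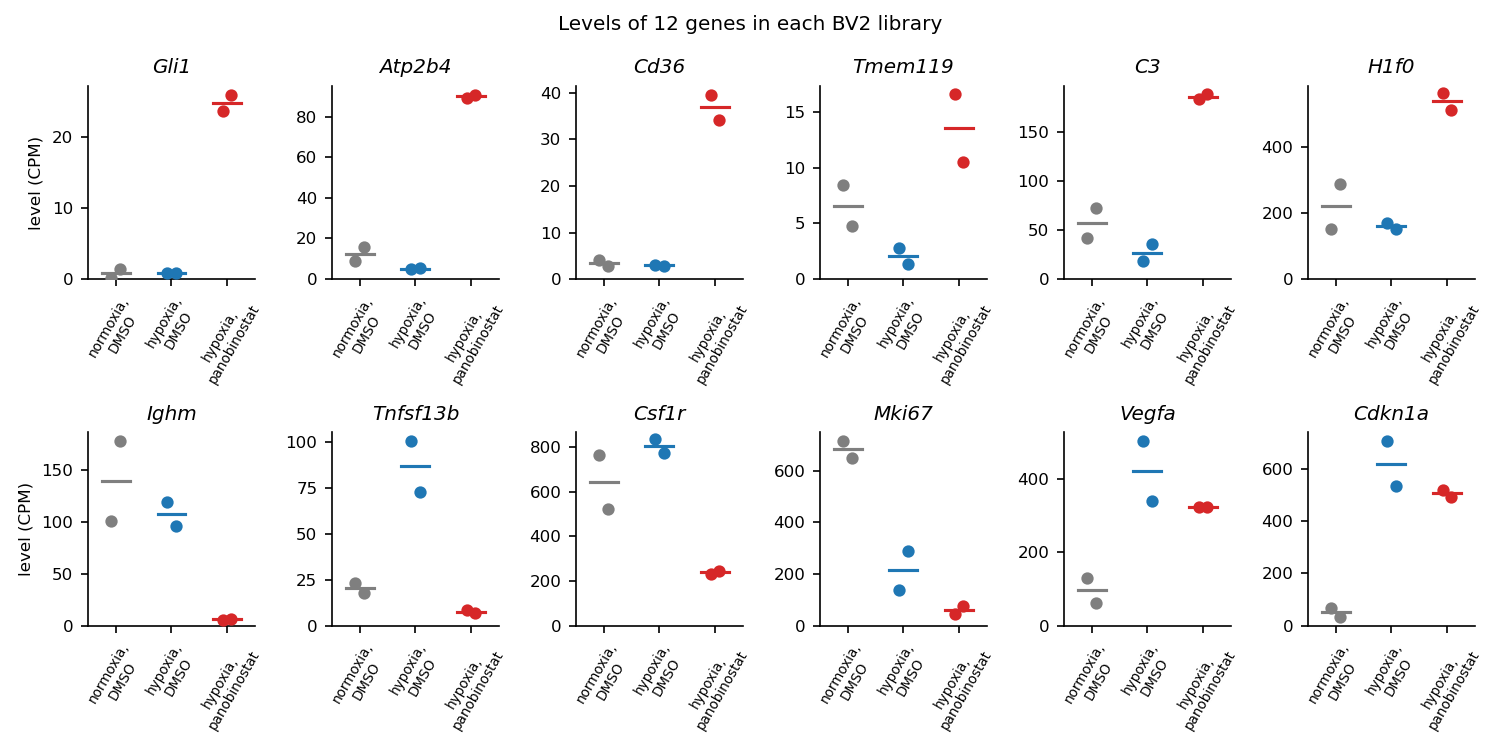
CPM (linear axes from 0) of 12 genes in the 6 BV2 libraries; points are libraries and bars the mean of the 2 in a group. Gli1, Atp2b4, Cd36, Tmem119, C3 and H1f0 are higher in both panobinostat libraries than in all others, Ighm, Tnfsf13b, Csf1r and Mki67 are lower, and Vegfa and Cdkn1a lie just below the hypoxic DMSO libraries and were not called.

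Cell cycle genes fell with panobinostat from a level that was already below the normoxic one. Of 28 genes of mitosis 0 rose and 16 fell, against 7.39% of all tested genes that fell, with a median log2 fold change of -1.36. Cdc20 (chr4:118432901-118437352, minus strand), the activator of the anaphase-promoting complex, read 180.3 and 301 CPM in normoxia with DMSO, 18.2 and 38.6 CPM in hypoxia with DMSO and 2.82 and 4.18 CPM in hypoxia with panobinostat, a change of -3.01 ± 0.42 (SE, adjusted p = 0.00334). Mki67, the proliferation marker, went from 137 and 289.6 to 44 and 76.1 CPM, against 714 and 651 in normoxia, a change of -1.83 ± 0.37 (SE, adjusted p = 0.0131). Kif20a, a motor of cytokinesis, changed by -2.16 ± 0.47, but 29.3% of its exonic bases lie antisense to Cdc23, and the use of strand in counting is not given in the sources used here. Nusap1, of the spindle, changed by -2.01 ± 0.45 and Ccna2, cyclin A2, by -1.89 ± 0.47. Bub1b, of the spindle checkpoint, was the only mitosis gene above 0, at 0.32 ± 0.30. Of 32 DNA replication genes 0 rose and 12 fell, with a median of -1.04. Rrm2, a subunit of ribonucleotide reductase, went from 15.5 and 45 to 5.31 and 10.9 CPM (-1.89 ± 0.47 (SE, adjusted p = 0.027)). The replication factors Mcm10, Mcm3 and Cdc45 were at -1.69 ± 0.46, -1.65 ± 0.41 and -1.65 ± 0.39, while Pcna, the sliding clamp, was at -0.08 ± 0.24.

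The 2 hypoxic DMSO libraries differed widely in these genes. Summed over the mitosis list they read 595 and 1451 CPM, against 343 and 492 CPM with panobinostat and 3917 and 5113 CPM in normoxia. The replication list summed to 898 and 2067 CPM with DMSO, 771 and 924 CPM with panobinostat and 3469 and 5126 CPM in normoxia. For the replication sum DMSO replicate 1 thus lay between the drug libraries, while for the mitosis sum both DMSO libraries lay above them. The part of this gap between the DMSO libraries in the fall was not tested, and in bulk RNA fewer dividing cells and less of these RNAs per cell cannot be told apart. The counts of falls hang on single libraries: of the mitosis genes 26 passed without DMSO replicate 1, 6 without DMSO replicate 2, 3 without panobinostat replicate 1 and 8 without panobinostat replicate 2, and of the replication genes 24, 0, 0 and 3.

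The promoter of Cdc20 carries the CCAAT letters known from genes read in G2 and mitosis. The 250 bases before its start on GRCm38.p6 (RefSeq) are given with CCAAT and GGGCGG in capitals on either strand.
Cdc20, chr4:118437344-118437593, minus strand: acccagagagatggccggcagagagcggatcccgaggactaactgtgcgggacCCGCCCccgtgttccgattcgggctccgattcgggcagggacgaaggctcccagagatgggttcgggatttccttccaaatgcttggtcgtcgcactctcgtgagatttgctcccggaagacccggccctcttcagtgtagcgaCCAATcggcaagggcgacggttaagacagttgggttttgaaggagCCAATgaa
It holds 2 CCAAT boxes near the start. Of 23 mitosis genes with a window 73.9% hold CCAAT, as do 68.0% of 25 replication genes, against 43.4% of all tested genes.

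Cdkn1a (chr17:29090976-29100727, plus strand), the p21 inhibitor of cyclin-dependent kinases, did not pass the threshold. It read 67.1 and 34.7 CPM in normoxia with DMSO, 706 and 533 CPM in hypoxia with DMSO and 520.1 and 493 CPM in hypoxia with panobinostat, a log2 fold change of -0.29 ± 0.30 (SE, adjusted p = 0.554). Among 22 cyclin-dependent kinase inhibitors and G1 genes, 2 rose (9.09%) and 4 fell (18.2%), against 7.21% and 7.39% of all tested genes. Cdkn2d, the p19 inhibitor, rose by 1.23 ± 0.22 and Rb1, the retinoblastoma protein, by 1.17 ± 0.20. Cdkn1c, the p57 inhibitor, went from 28.7 and 29 to 5.88 and 8.22 CPM (-2.03 ± 0.27 (SE, adjusted p = 0.00279)), with 30.6% of its exonic bases antisense to Gm44732. Cyclin E2 (Ccne2), the Rb relative Rbl1 and the kinase Cdk4 changed by -1.35 ± 0.31, -1.23 ± 0.33 and -1.005 ± 0.21.

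Few genes of the hypoxia response passed the test. Of 42 tested hypoxia-response genes 1 rose and 2 fell, a share below the 14.6% of all tested genes, and the median log2 fold change was -0.10. With either normoxic library left out 2 rose and 5 fell, and with either panobinostat library left out 0 were called. The replicate block called 2 higher and 4 lower, and the block with only the 4 hypoxic libraries 6 higher and 12 lower, in a fit that called 5705 of all genes. Their summed level was 58326 and 57950 CPM with DMSO, 51496 and 53920 CPM with panobinostat, and 15298 and 18872 CPM in normoxia. Vegfa, the angiogenic growth factor, read 130.2 and 61.3 CPM in normoxia with DMSO, 504 and 338 CPM in hypoxia with DMSO and 323 and 324 CPM in hypoxia with panobinostat, at -0.38 ± 0.33 (SE, adjusted p = 0.475). Slc2a1, the glucose transporter GLUT1, was at 0.19 ± 0.27 (SE, adjusted p = 0.674), and Bnip3, of mitophagy, at -0.08 ± 0.26 (SE, adjusted p = 0.861). Hif1a itself was at 0.24 ± 0.20 (SE, adjusted p = 0.435). The 3 genes that changed were Plod2, a collagen lysyl hydroxylase (192 and 187 CPM with DMSO and 371 and 422 CPM with panobinostat, 1.07 ± 0.20), Stc2, a secreted stanniocalcin (41.7 and 53.3 CPM with DMSO and 18 and 17.7 CPM with panobinostat, -1.41 ± 0.28), and Mif, a cytokine (771 and 837 CPM with DMSO and 347 and 363 CPM with panobinostat, -1.18 ± 0.24), whose short transcript shares 38.3% of its words with other genes. Among 11 HIF subunits and regulators only Vhl, which marks HIF for degradation, rose, by 0.75 ± 0.20. Nos2, the inducible nitric oxide synthase, read 0.67 and 0.278 CPM in normoxia with DMSO, 74.7 and 137 CPM in hypoxia with DMSO and 35 and 104 CPM in hypoxia with panobinostat, and its treatments overlapped (-0.60 ± 0.45, adjusted p = 0.397). It was lower within both same-numbered pairs, and with the replicate block its adjusted p was 0.0171.

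A few MHC class II genes rose to a low level with panobinostat. MHC class II molecules present peptides to CD4 T cells, and their genes share a promoter module whose Y box is a CCAAT box on the opposite strand. Of 11 tested genes of the pathway 5 rose and 0 fell, against 7.21% and 7.39% of all tested genes. H2-Aa, H2-Eb1 and H2-Ob passed the low-count filter only through the panobinostat libraries, so the count does not support a rise of the list. H2-Aa (chr17:34282744-34287823, minus strand), the I-A alpha chain, had 0 counts in all 4 DMSO libraries, normoxic and hypoxic, and 34 and 38 with panobinostat, at least 12.8-fold higher than the floor. H2-Eb1 (chr17:34305867-34316674, plus strand), the I-E beta chain, had 0 in all 4 and then 21 and 25, at least 8.18-fold higher. H2-Ob (chr17:34238903-34254414, plus strand), a chain of the H2-O modulator of peptide loading, had 0 in all 4 and then 43 and 33, at least 13.6-fold higher. H2-DMa, of the peptide exchange factor H2-M, read 1.81 and 2.39 CPM with DMSO and 15.5 and 14.3 CPM with panobinostat, a rise of 2.82 ± 0.36 (SE, adjusted p = 0.00247), with 10.4% of its exonic bases antisense to Brd2. H2-Oa rose by 1.16 ± 0.31. The invariant chain Cd74 was at 0.49 ± 0.24 (SE, adjusted p = 0.183), not past the threshold, and the master regulator Ciita was under the low-count filter. Set at their bounds, the 3 genes from 0 leave the list's median at 0.51. DESeq2 called 3 genes of the list.

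For the 2 class II genes with the most counts from 0 the 250 bases before the start (RefSeq, GRCm38.p6) are given, with CCAAT and TGACGTCA, the cyclic AMP response element, in capitals on either strand.
H2-Aa, chr17:34287824-34288073, minus strand: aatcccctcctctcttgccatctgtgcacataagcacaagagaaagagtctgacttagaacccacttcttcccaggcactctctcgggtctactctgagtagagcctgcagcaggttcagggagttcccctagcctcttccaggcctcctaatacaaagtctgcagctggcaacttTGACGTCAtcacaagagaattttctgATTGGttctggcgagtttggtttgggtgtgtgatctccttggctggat
H2-Ob, chr17:34238655-34238904, plus strand: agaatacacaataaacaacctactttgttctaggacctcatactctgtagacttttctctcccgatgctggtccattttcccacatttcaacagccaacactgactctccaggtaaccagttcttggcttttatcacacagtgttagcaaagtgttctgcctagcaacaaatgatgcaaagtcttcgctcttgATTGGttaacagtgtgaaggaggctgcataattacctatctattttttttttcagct
Both windows hold ATTGG, the CCAAT box on the other strand, near the start. H2-Aa alone of the 2 holds TGACGTCA. CCAAT was in 8 of 9 windows of the list and TGACGTCA in 1 of 9, against 43.4% and 3.69% of all tested genes.

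Few MHC class I and interferon genes passed the test. Of 20 tested class I pathway genes 0 rose and 1 fell, against 7.21% and 7.39% of all tested genes: Psmb10, a subunit of the immunoproteasome, from 20 and 35 to 5.23 and 6.34 CPM (-2.24 ± 0.31 (SE, adjusted p = 0.00348)). H2-K1, the K molecule itself, was at 0.26 ± 0.27 (SE, adjusted p = 0.558). Of 35 interferon-response genes 2 rose and 1 fell, but their median was 0.55 and 23 lay above 0. The count of rises was 8 without normoxic replicate 1, 9 without normoxic replicate 2 and 10 with the replicate block, and 1 and 0 without panobinostat replicates 1 and 2. Ifit2, an antiviral protein, rose by 1.80 ± 0.33 and Isg20, an exonuclease, by 1.44 ± 0.34, and Irf8, a transcription factor of myeloid cells, changed by -1.07 ± 0.23. Ifit1 and Cxcl10 stayed at 1.2 CPM or less in all 4 hypoxic libraries. The checkpoint ligand Cd274 (PD-L1) read 21.9 and 10.8 CPM with DMSO and 37.3 and 25.1 CPM with panobinostat, 0.93 ± 0.39 (SE, adjusted p = 0.135). With the replicate block its adjusted p was 0.00105. Among 16 checkpoint and adenosine genes 2 rose and 1 fell: Cd40, the costimulatory receptor (2.36 ± 0.42), Lgals9, galectin 9 (1.60 ± 0.31), and Sirpa, the receptor of the signal against phagocytosis (-0.96 ± 0.26).

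Of 25 toll-like receptor and NF-kB genes 1 rose and 6 fell, against 7.21% and 7.39% of all tested genes. The falls were in 3 sensors of microbial products and 3 members of the NF-kB pathway. Tlr13, a receptor for bacterial ribosomal RNA, went from 52 and 39 to 7.97 and 8.29 CPM (-2.48 ± 0.47 (SE, adjusted p = 0.0103)). Tlr7, a receptor for single-stranded RNA, went from 85.5 and 61 to 15.7 and 17.3 CPM (-2.15 ± 0.33 (SE, adjusted p = 0.00484)), and Cd14, the lipopolysaccharide co-receptor, from 136 and 144 to 26.5 and 39.7 CPM (-2.08 ± 0.24 (SE, adjusted p = 0.00196)). Each of the 3 kept its call whichever library was left out. The NF-kB subunits Nfkb1 and Rela and the inhibitor Nfkbia changed by -0.88 ± 0.22, -0.70 ± 0.20 and -0.98 ± 0.28, while Tlr1, of the lipopeptide receptor, rose by 1.64 ± 0.31. The count of 6 was 3 with either panobinostat library left out or without DMSO replicate 2.

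Of 15 tested cytokines 2 rose (Ltb 1.75 ± 0.46, Tnfsf14 1.20 ± 0.35) and 2 fell (Osm -1.56 ± 0.43, Tnfsf9 -1.12 ± 0.33). These are 13.3% each, against 7.21% and 7.39% of all tested genes. With either panobinostat library left out, or DMSO replicate 1, 0 cytokines were called. Il1b and Tnf, the chief inflammatory cytokines, reached at most 5.05 CPM in the hypoxic libraries, at 0.74 ± 0.51 (SE, adjusted p = 0.359) and 0.56 ± 0.51 (SE, adjusted p = 0.498). Spp1, osteopontin, was among the most abundant transcripts at 5120.2 and 3066 CPM with DMSO and 10004 and 6573 CPM with panobinostat, 1.02 ± 0.41 (SE, adjusted p = 0.117). With the replicate block its adjusted p was 0.0075. Of 11 tested chemokines 1 rose and 1 fell, 9.09% each, which is near the shares of all tested genes. Ccl2, which draws monocytes, rose from 1.18 and 0.822 to 8.46 and 3.53 CPM (2.57 ± 0.52 (SE, adjusted p = 0.0131)), and Ccl9 fell from 359 and 178 to 82.5 and 47.7 CPM (-2.05 ± 0.39 (SE, adjusted p = 0.0104)). Acod1, which makes itaconate, changed by -2.72 ± 0.69 and Slc7a1, an arginine transporter, by -1.29 ± 0.32, and Arg1 was under the low-count filter.

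Microglial identity genes went both ways. Of 31 tested 4 rose and 5 fell, against 7.21% and 7.39% of all tested genes. Csf1r (chr18:61100598-61132149, plus strand), the receptor of the growth factors CSF1 and IL-34 on which microglia depend, read 766 and 522 CPM in normoxia with DMSO, 836 and 773 CPM in hypoxia with DMSO and 234 and 244 CPM in hypoxia with panobinostat, a fall of -1.75 ± 0.25 (SE, adjusted p = 0.00362). Part of its exons, 15.1% of the bases, lie antisense to Hmgxb3. Trem2, a lipid receptor of microglia, Spi1, the transcription factor PU.1, the Fc receptor Fcgr3 and Ptprc (CD45) changed by -1.33 ± 0.33, -1.08 ± 0.22, -1.04 ± 0.29 and -0.94 ± 0.24. Tmem119 (chr5:113793729-113800516, minus strand), a membrane protein used to mark resident microglia, read 8.42 and 4.8 CPM in normoxia with DMSO, 2.75 and 1.34 CPM in hypoxia with DMSO and 16.6 and 10.5 CPM in hypoxia with panobinostat and rose by 2.72 ± 0.45 (SE, adjusted p = 0.00638). Olfml3, another gene enriched in microglia, read 2.99 and 4.63 CPM with DMSO and 22.1 and 16.9 CPM with panobinostat (2.35 ± 0.31). The F4/80 gene Adgre1 rose by 1.48 ± 0.39 and C1qc, a chain of complement C1q, by 1.70 ± 0.41. The 5 falls were not all held by each library: 0 passed without panobinostat replicate 1, 1 without panobinostat replicate 2 and 2 without DMSO replicate 1. Laptm5, Cd68, Tyrobp and Fcer1g stayed between -0.34 and -0.03 on the log2 scale and were not called.

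Of 10 tested complement genes 3 rose and 0 fell, against 7.21% and 7.39% of all tested genes, and the median was -0.02. C1s1, among the 3, had at most 4 counts in each DMSO library and 100 and 77 with panobinostat. It passed the low-count filter only through the panobinostat libraries, so the count does not support a rise of the list. C3 (chr17:57203970-57228136, minus strand), the central component, read 41.4 and 72.7 CPM in normoxia with DMSO, 18.1 and 35.3 CPM in hypoxia with DMSO and 183 and 188 CPM in hypoxia with panobinostat and rose by 2.79 ± 0.35 (SE, adjusted p = 0.00247). C1ra, a C1 protease, read 1.02 and 1.79 CPM with DMSO and 8.86 and 7.35 CPM with panobinostat (2.51 ± 0.38) and C1s1, its partner, 0.0786 and 0.299 CPM with DMSO and 8.05 and 5.55 CPM with panobinostat (5.09 ± 0.59). C1ra and C1s1 share 42.4% and 24.8% of their words with the near copies C1rb and C1s2, so their counts are less certain than that of C3. The count of 3 rises was the same whichever library was left out. Of 19 scavenger and phagocytosis receptors 2 rose, Cd36 and the integrin Itgb5 (0.90 ± 0.20), and 3 fell, the lectins Clec4e (-1.86 ± 0.40) and Clec7a (-0.98 ± 0.29) and the collectin Colec12 (-1.41 ± 0.37), with 0 falls with either panobinostat library left out. Of 20 genes known from lipid-laden macrophages only Lgals3, galectin 3, was called, at -0.99 ± 0.26.

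**Figure D4:**
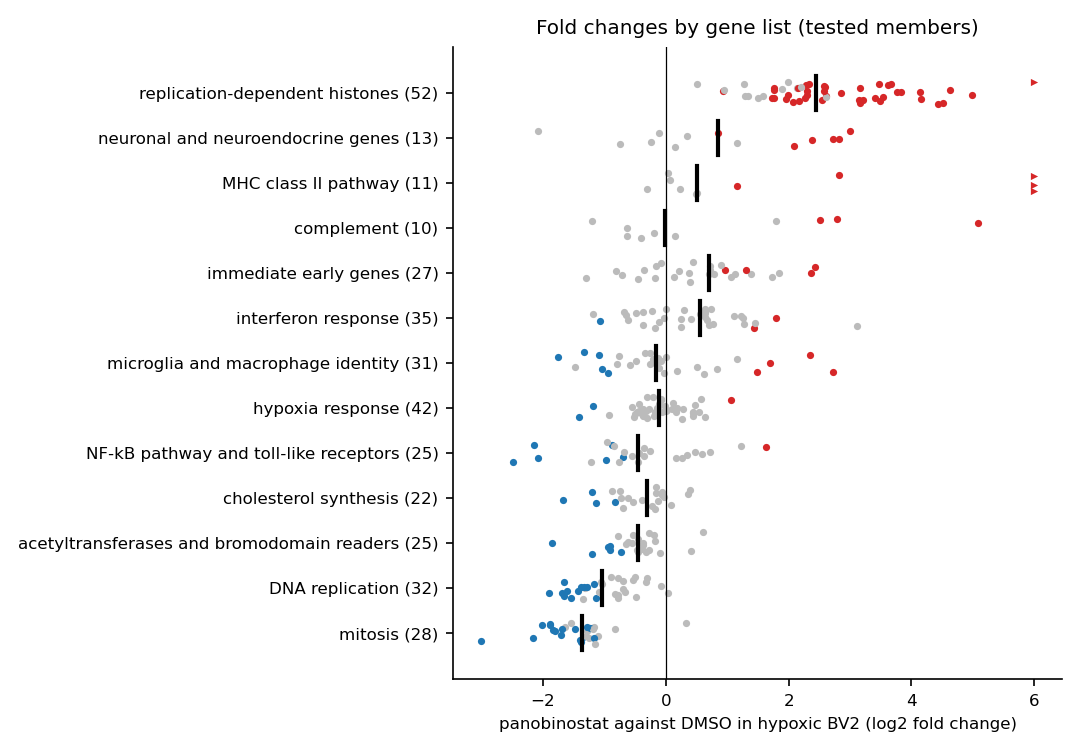
Log2 fold changes of panobinostat against DMSO for the tested members of 13 gene lists (number in parentheses); red points were called higher, blue lower and grey not called, the black bar is the median, and arrowheads at 6 stand for larger values. Histone genes all lie above 0 with a median of 2.44, mitosis and replication genes other than Bub1b and Gins3 lie below 0, with medians of -1.36 and -1.04, and the hypoxia response centres on -0.10.

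Of 27 immediate early genes 4 rose and 0 fell, against 7.21% and 7.39% of all tested genes. Their median was 0.71, with 19 above 0, and the count of rises was 13 with the replicate block, which also called 3 lower, and 1 without panobinostat replicate 2. Fos, a subunit of AP-1, read 34.8 and 33 CPM with DMSO and 111 and 256 CPM with panobinostat (2.44 ± 0.36 (SE, adjusted p = 0.00425)), and Nr4a1, an orphan nuclear receptor, read 13.2 and 13.2 CPM with DMSO and 44 and 91.4 CPM with panobinostat (2.36 ± 0.44); in both panobinostat replicate 2 was the higher. The phosphatase Dusp2 and Junb rose by 1.31 ± 0.23 and 0.96 ± 0.22. Of 17 tested genes of the p53 list, 3 rose, the death receptor Fas (1.99 ± 0.41), the antiproliferative Btg2 (1.51 ± 0.29) and Pmaip1, the BH3 protein NOXA (1.41 ± 0.27), and 2 fell, Aen (-1.48 ± 0.42) and Trp53 (-0.74 ± 0.20). Bid was the only 1 of 11 BCL2 family genes called, at 0.95 ± 0.21. Of 22 cholesterol genes 0 rose and 4 fell, among them the sterol synthesis enzymes Ebp (-1.20 ± 0.24), Idi1 (-1.13 ± 0.25) and Mvd (-0.83 ± 0.21). Without panobinostat replicate 1 the p53 list had 1 rise and the cholesterol list 1 fall, and without panobinostat replicate 2 both counts were 0. Atf4 was the only 1 of 23 genes of the unfolded protein and integrated stress response called and changed by -0.82 ± 0.23. The falls in that list numbered 8 with the replicate block and 6 with either normoxic library left out. The chaperone genes Bag3 and Dnajb1 changed by -0.91 ± 0.21 and -0.85 ± 0.20. Gclc, which makes glutathione, rose by 0.76 ± 0.21. None of 10 mitochondrially encoded transcripts was called in edgeR's test, and with the replicate block 3 passed.

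Some genes typical of other tissues were higher with the drug. Of 35 neuronal and neuroendocrine genes only 13 passed the low-count filter, a filter that lets in genes for being high with the drug alone. Of these, 6 were called higher, against 7.21% of all tested genes. Because of that filter the count does not support a rise of the list. Vgf, a neuropeptide precursor, was the most abundant at 6.84 and 2.91 CPM with DMSO and 35.6 and 29 CPM with panobinostat (2.73 ± 0.51 (SE, adjusted p = 0.00995)). L1cam, an adhesion molecule of axons, read 0.629 and 1.12 CPM with DMSO and 5.72 and 8.51 CPM with panobinostat (3.01 ± 0.57), and Mapt, the tau gene, 1.73 and 0.971 CPM with DMSO and 7.73 and 6.42 CPM with panobinostat (2.38 ± 0.50). Cplx2, Syp and Syt11 of the synaptic vesicle cycle were at 2.82 ± 0.76, 2.08 ± 0.52 and 0.86 ± 0.23, while Elavl3, an RNA-binding protein of neurons, was at -2.08 ± 0.64 and was not called. Leaving out panobinostat replicate 1 left 2 calls, panobinostat replicate 2 1, and DMSO replicate 1 3. The list summed to 263 and 215 CPM with DMSO and 394 and 348 CPM with panobinostat. Des, desmin of muscle, went from 1.1 and 0.971 to 7.89 and 7.42 CPM, and Pdgfra, the PDGF receptor alpha of glial precursors, from 0.314 and 0.747 to 4.43 and 5.98 CPM. Endothelial and fibroblast genes summed to 393 and 204 CPM with DMSO and 99.4 and 97.7 CPM with panobinostat, of which Vwf made up most, at 347 and 165 CPM with DMSO and 65.5 and 67 CPM with panobinostat (-1.95 ± 0.49). Of 17 lymphocyte genes 1, Lck, could be tested, and it was not called.

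By gene type, protein-coding genes made up 89.9% of the higher and 93.7% of the lower genes, against 86.3% of 13284 tested genes found in the annotation. Long noncoding genes were 9.6%, 5.29% and 8.33%, and pseudogenes 0.418%, 0.916% and 5.08%. With the histone genes left out, 5.12% of the higher genes had a single exon block, against 3.26% of the lower and 9.19% of all tested genes. These shares were not tested.

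The same treatments were given to hypoxic BMDM. In a fit of all 12 libraries, the difference between the 2 cell types' responses passed the threshold in edgeR's test for 4 of 15955 genes (0.0251%), and 1793 had an unadjusted p under 0.05. DESeq2 called 221. Cd36 rose in BV2 cells but fell in BMDM, from 173 and 149.9 to 48.0 and 75.9 CPM, and the difference in log2 fold change was 5.04 ± 0.48 (adjusted p = 0.00841). Slc39a8, a zinc transporter, had 1 and 0 counts with DMSO and 15 and 17 with panobinostat in BV2, and fell from 58.0 and 47.3 to 14.3 and 9.50 CPM in BMDM (adjusted p = 0.0288). Dhrs3, a retinal reductase, was 99.7 and 82.6 against 107 and 112 CPM in BV2 and fell from 196 and 238 to 41.5 and 43.5 CPM in BMDM, a difference of 2.61 ± 0.31 (adjusted p = 0.0288). Lmtk3, a kinase, was 1.59 and 2.90 against 1.09 and 1.66 CPM in BV2 and rose from 0.524 and 0.338 to 38.6 and 63.3 CPM in BMDM, a difference of -7.51 ± 0.71 (adjusted p = 0.00841). Without DMSO replicate 2, or with either panobinostat library left out of BV2, 0 of the differences passed. Unadjusted p was under 0.05 for 1109, 1061 and 1311 genes in those fits.

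No single histone gene passed this test, and the smallest adjusted p among 55 was 0.0661. An unadjusted p under 0.05 was found for 47 of the 55, or 85.5%, against 11.2% of all tested genes. DESeq2 called 18 of 50, each with the higher response in BV2. The low-count filter lets in genes for being high in the BV2 panobinostat libraries alone, and core histone genes share sequence. These counts thus do not by themselves support a response of the list that differs between the cell types. With a mean CPM of at least 5 as the filter, 19 were tested and 17 had an unadjusted p under 0.05. With the default filter, the median log2 fold change of the 55 was 2.34 in BV2 and -1.03 in BMDM. In BMDM 3 of them were called higher and 3 lower. The histone sum in BMDM was 1484 and 447 CPM with DMSO and 1081 and 519 CPM with panobinostat, and 160.0 and 138 CPM in normoxia, so the BMDM treatments overlapped. Hist1h1c in BMDM read 766 and 141 CPM with DMSO and 652 and 273 CPM with panobinostat. Hist1h1e in BMDM read 5.32 and 2.37 CPM with DMSO and 13.4 and 5.17 CPM with panobinostat, a change of 1.25 ± 0.57. Gli1, Ighm and Igsf6 were at 7.41 ± 0.90, -3.91 ± 1.61 and -3.71 ± 0.40 in BMDM, and none of the 3 had a response that differed between the cell types by this test.

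**Figure D5:**
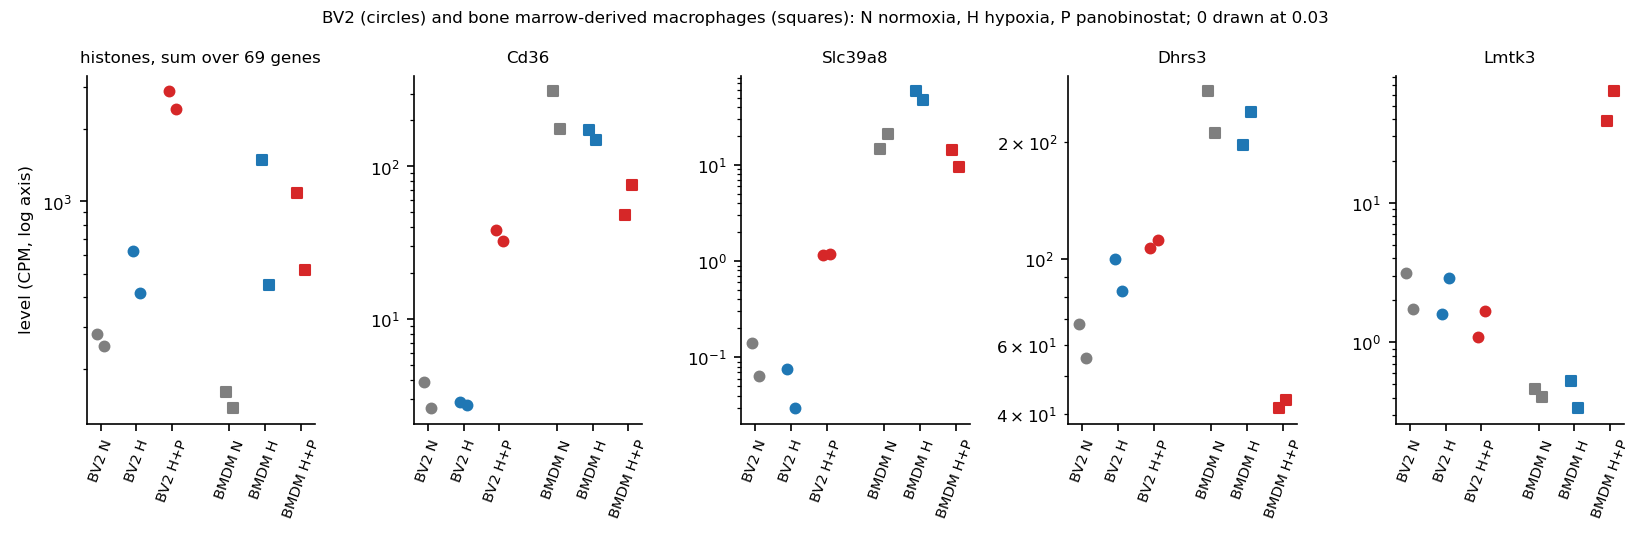
CPM (log axes) in the 6 BV2 libraries (circles) and 6 BMDM libraries (squares) in normoxia (N), hypoxia (H) and hypoxia with panobinostat (H+P), for the summed histone genes and the 4 genes whose response differed between the cell types; a value of 0 is drawn at 0.03. Histones rise with the drug in BV2 and overlap in BMDM, and Cd36 rises in BV2 but falls in BMDM.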

How the data were processed

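The authors deposited raw read counts per Ensembl gene, 1 column per library, and these counts were used unchanged. Per the labels' protocols, poly(A) RNA was made into stranded libraries and read in pairs. Per the submitters' processing notes, which give no roles or order, Trimmomatic 0.36, STAR 2.6, HTSeq 0.9.1, SAMtools, deepTools and the mm10 build were used. The strand setting and annotation of the counting are not given in the sources used here. Positions and overlaps come from GENCODE on GRCm38, the same build as mm10, and promoter sequences from RefSeq.

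The 6 BV2 libraries of the panobinostat table shared 1 fit in edgeR 4.0.16 (R 4.3.3) with a mean per group, TMM scaling and the default filter (minimum count 10, minimum total 15). Panobinostat was compared with DMSO in hypoxia with the quasi-likelihood F test, adjusted by Benjamini-Hochberg over all tested genes at 0.05. No test was made against normoxia. SE is the log2 fold change over the root of F. Levels in CPM are TMM-scaled for single genes and plain for sums and markers. The functions were tested on simulated data. The response was compared between BV2 and BMDM by an interaction term over 12 libraries.

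Members and gene lists were chosen with earlier results of these data known. Named genes are the 10 largest rises and falls among called genes whose mean log2 CPM reached 3, with no overlap between treatments and no predicted name, a panel, up to 4 called genes per list, and the called interactions. Other genes are named as counts of 5 or fewer, or to show list members, and were chosen with values in view. Alternatives were DESeq2 1.42.0, its size factors, library totals, 2 other filters, the replicate block, other sets of libraries, and leaving out each library.

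Replicate numbers come from the titles, and nothing in the labels states a pairing. Deviations of same-numbered libraries from their group means correlated at 0.364 between hypoxic DMSO and panobinostat, 0.389 between normoxic and hypoxic DMSO, and 0.154 between normoxic DMSO and panobinostat. With 2 numbers this does not establish pairs, so the block was an alternative.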

Additional observations from a re-analysis of the deposited data

Results flagged for a closer look

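The response to panobinostat differed between BV2 cells and BMDM for 4 genes by the interaction test of edgeR, each as the log2 fold change in BV2 minus that in BMDM. The difference was 5.04 for Cd36, 6.83 for Slc39a8, 2.61 for Dhrs3 and -7.51 for Lmtk3. In BV2 the fitted log2 fold changes were 3.65 ± 0.36 for Cd36, 0.26 ± 0.22 for Dhrs3 and -0.70 ± 0.46 for Lmtk3, and in BMDM -1.38 ± 0.32, -2.35 ± 0.23 and 6.81 ± 0.56 (SE). For Slc39a8 the hypoxic BV2 libraries with DMSO held 1 count in all, so the size of its difference depends on the fit's prior count. The 2 libraries of each treatment did not overlap in either cell type for Cd36 and Slc39a8, whereas Lmtk3 overlapped in BV2. The cell types also differ in serum and in being a line and primary cells, which cannot be told apart from the cell type.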

How the results depend on the processing

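The count of genes changed by panobinostat, 1941, was 4025 with the replicate block, 5705 with the block and only the 4 hypoxic libraries (added after seeing the data), and 322 with all 12 libraries in 1 fit. It ran from 292 to 2505 when 1 library was left out. DESeq2 gave 2101, its size factors 1979, no filter 2854, a mean CPM of at least 5 1424 and the 4 hypoxic libraries alone 2591. The 4 interaction calls became 221 with DESeq2, 613 with no filter, 22 with the replicate block, and 0 to 82 when a library was left out. The block thus raised both counts, and it left all 1941 genes called. Of the list counts, it moved the falls in acetyltransferases and readers from 6 to 11, in DNA replication from 12 to 23, in mitosis from 16 to 27, in NF-kB and toll-like receptor genes from 6 to 10 and in identity genes from 5 to 8, and with the 4 hypoxic libraries alone these were 16, 26, 27, 11 and 11. With all 12 libraries in 1 fit the same falls were 2, 0, 0, 0 and 0, the MHC class II rises 2 of 5, the neuronal rises 0 of 6 and the histone rises 18 of 40. Library totals gave falls of 3, 3, 10, 3 and 3. With no filter replication had 23 and mitosis 27 falls. A mean CPM of at least 5, which tests fewer genes, left 6 replication falls, 2 MHC class II, 2 neuronal and 23 histone rises, and DESeq2 3 MHC class II rises. Leaving out 1 library gave ranges of 1 to 7 for acetyltransferases and readers, 0 to 24 for replication, 3 to 26 for mitosis, 4 to 5 for MHC class II, 3 to 8 for NF-kB and toll-like receptors, 0 to 5 for identity falls, 1 to 6 for neuronal and 22 to 44 for histone genes. Except where fewer genes or libraries were tested, the cause was not tested. No called gene that is named changed direction. Among those not called, Bnip3 turned to 0.025 with library totals. When 1 hypoxic library was left out, Bnip3 ran from -0.19 to 0.0089, Tnf from -0.026 to 1.53, Myc from -0.77 to 0.43 (0.072 without panobinostat replicate 1) and mt-Co1 from -0.18 to 0.62 (-0.027 without panobinostat replicate 1). With 2 libraries a group, depth and spread limit calls of genes near 1 CPM, where a few counts decide.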
